A study of Mus musculus with 6 samples.

Results

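The epidermal barrier lipid genes are a group of 9 genes whose products make, carry or process the lipids of the outer skin: *Elovl1*, *Elovl4*, *Cers3*, *Ugcg*, *Abca12*, *Smpd1*, *Alox12b*, *Aloxe3* and *Lipm*. They were taken by symbol from the gene coverage files, and all 9 were found among the 24982 symbols listed. The RNA-seq compared 3 libraries of KSFM-Ca2+ cells with 3 libraries of DKSFM cells, both keratinocyte lines of the C57BL/6 strain that came from neonatal skin and received no treatment. KSFM-Ca2+ cells were derived and kept in a serum-free medium with little calcium, and DKSFM cells are descendants of them that survived a move to a defined keratinocyte medium, so that medium, adaptation and selection cannot be told apart. The sources used here do not say what a replicate was or why KSFM-Ca2+ replicate 3 and the 3 DKSFM replicates come from files marked as combined. Because separate cultures are not stated, p-values measure only the spread between these samples, which may be technical.

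The barrier of the skin is a stack of lipid layers between dead, flattened keratinocytes. Keratinocytes lengthen fatty acids, join them to sphingoid bases as ceramides, add glucose and load the product into lamellar granules, and after secretion hydrolases release the ceramides again. Lipoxygenases oxidise the linoleate that some of these ceramides carry, a step needed to fix lipid to the protein envelope of the cell, and inherited loss of several of these genes causes ichthyosis.

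Values are mean read coverage per base of each gene, which is a level per length, scaled between libraries and called normalized coverage here. Total coverage was 1601676, 1238411 and 1057750 in KSFM-Ca2+ replicates 1 to 3 and 1174348, 1239438 and 1170675 in DKSFM replicates 1 to 3. Reads per gene were not used here, so the counting error behind a value is unknown, and the rounding step of 0.1 is the smallest level that could be seen. Fold changes are DKSFM over KSFM-Ca2+ on the scale of log2(normalized coverage + 0.1), where the addition makes changes at low coverage look smaller than they are. A gene was called when the adjusted p of limma was under 0.01 and the change was at least 2-fold. The filter on low coverage asked for 0.5 or more in 3 libraries. A gene under 0.5 in every library of 1 line passed only through the other line, so its lack of overlap came with the filter. The p-value of such a gene is no further support for a difference.

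Of the 9 genes, 7 passed the filter on low coverage and were tested, while *Alox12b* and *Aloxe3* did not. *Lipm* was the 1 member called higher in the DKSFM cells, against 13.2% of all 12409 tested genes, and *Abca12* was the 1 member called lower, against 10.5%. All 7 tested members had an adjusted p under 0.01 in limma and no overlap between the lines. Those shares were also high over all tested genes, at 72.6% and 83.3%, so neither count sets the members apart. For *Lipm*, which passed the filter through the DKSFM libraries alone, the lack of overlap came with the filter. *Elovl1* and *Cers3* rose by less than 2-fold, and *Elovl4*, *Ugcg* and *Smpd1* fell by less than 2-fold. In bulk RNA, fewer cells of a type and less RNA per cell cannot be told apart.

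**Figure D1:**
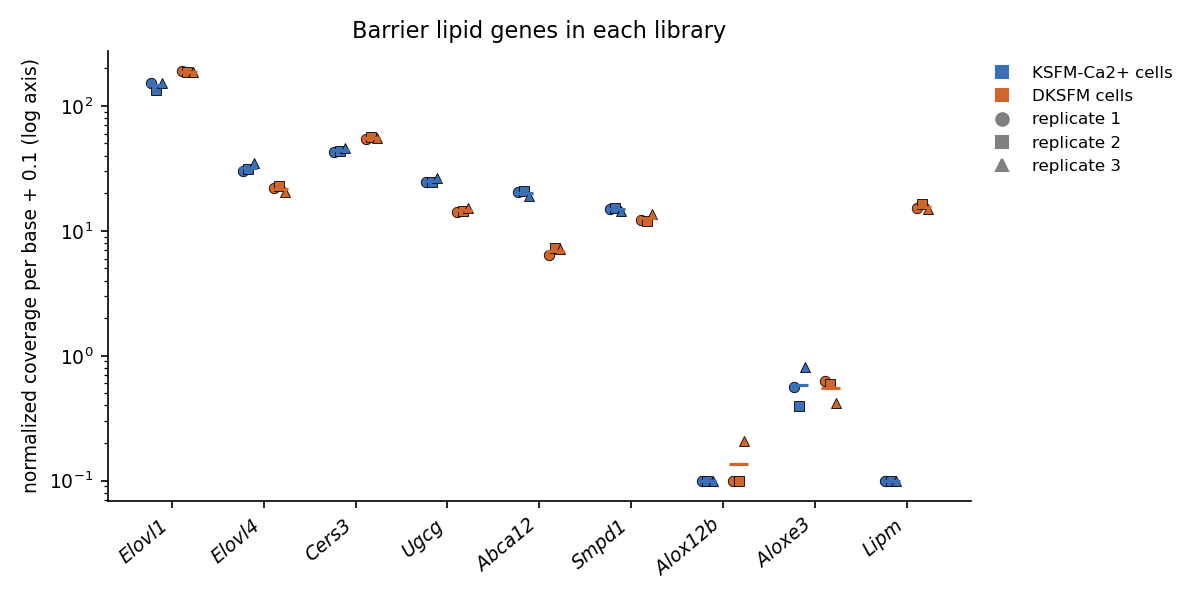
Normalized coverage per base plus 0.1 on a log axis for the 9 genes, with each library as a point, replicates by shape and the mean of a line as a bar. *Lipm* lies at the floor of the axis in the KSFM-Ca2+ cells and at 14.9 to 16.4 before the addition in the DKSFM cells, and *Abca12* is lower in all 3 DKSFM libraries.

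The 2 elongases moved in opposite directions. *Elovl1*, which lengthens saturated and monounsaturated fatty acids to very long chains, had a normalized coverage of 153, 134 and 152 in KSFM-Ca2+ replicates 1 to 3 and of 189, 187 and 187 in the DKSFM replicates. Every DKSFM library was above every KSFM-Ca2+ library, and KSFM-Ca2+ replicate 2 was the lowest. The mean rose from 146 ± 10.9 to 188 ± 1.30 (SD, n = 3), a log2 fold change of 0.36 with an SE of 0.05 (limma, adjusted p = 2.43e-04). *Elovl4*, the enzyme for the ultra long chains found in skin, retina and a few other tissues, had 30.0, 31.0 and 34.6 in the KSFM-Ca2+ libraries and 22.0, 22.9 and 20.2 in the DKSFM libraries. Here the 3 DKSFM libraries were all below the 3 of the KSFM-Ca2+ cells. The log2 fold change was -0.55 with an SE of 0.07 (limma, adjusted p = 1.09e-04).

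The ratio of *Elovl4* to *Elovl1* coverage, which no single scaling factor per library can change, was 0.196, 0.231 and 0.227 in the KSFM-Ca2+ libraries and 0.116, 0.122 and 0.108 in the DKSFM libraries. Its mean was 0.218 ± 0.0194 against 0.116 ± 0.00704 (SD, n = 3), and no library of one line reached those of the other.

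Among the other genes of the fatty acid elongation cycle, 8 of 10 were tested. Of these, 2 were called lower (10.5% over all tested genes) and none was called higher (13.2%). The larger fall was in *Hacd1*, a dehydratase of the cycle, which had a normalized coverage of 29.5, 26.0 and 33.3 in the KSFM-Ca2+ libraries and 2.87, 0.999 and 1.59 in the DKSFM libraries. Its log2 fold change was -4.06 with an SE of 0.31 (limma, adjusted p = 5.37e-06). *Elovl5*, an elongase of polyunsaturated fatty acids that was named after its values were seen, went from 84.3 ± 2.75 to 36.7 ± 2.16 (SD, n = 3). *Hacd2*, a second dehydratase also named after its values were seen, was past the adjusted p but under 2-fold, with a log2 fold change of 0.89. *Hacd3*, named in the same way, was at 54.7 ± 1.82 and 54.9 ± 0.307, and the 95% interval of its log2 fold change ran from -0.08 to 0.09.

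*Cers3*, the ceramide synthase that takes ultra long fatty acids, had a normalized coverage of 42.7, 43.7 and 46.0 in the KSFM-Ca2+ libraries and 54.0, 56.2 and 54.8 in the DKSFM libraries. The DKSFM libraries were all higher, with little spread inside either line. The log2 fold change was 0.32 with an SE of 0.04 (limma, adjusted p = 1.19e-04). *Cers2*, which makes ceramides of somewhat shorter very long chains, was the more abundant of the pair per length, at 93.2, 95.5 and 96.3 in the KSFM-Ca2+ libraries against 109, 104 and 102, and its log2 fold change was 0.15. *Cers4* was listed at 0 in 5 of the 6 libraries and at 0.1 in DKSFM replicate 3.

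The first step of ceramide synthesis held a gene that went from below the rounding step to a high level. *Sptlc3*, a catalytic subunit of serine palmitoyltransferase that gives sphingoid bases of other lengths, was listed at 0 in all 3 KSFM-Ca2+ libraries, whereas DKSFM replicates 1 to 3 listed 105.3, 102.4 and 103.2 (limma, adjusted p = 1.27e-10). No fold is given against a line listed at 0. *Sptlc3* passed the filter through the DKSFM libraries alone, so its p-value is no further support. Its partners were present in both lines. *Sptlc1*, the shared subunit, had 52.4 ± 0.928 and 48.0 ± 0.897, and *Sptlc2*, the other catalytic subunit, had 32.9 ± 0.648 and 47.3 ± 1.30 (SD, n = 3). In the DKSFM cells the coverage per base of *Sptlc3* was thus above that of both partners in every library. *Degs1*, the desaturase that completes ceramide, was abundant in both lines, at 712 ± 7.79 and 914 ± 35.4, while *Degs2*, which makes the phytoceramides of the epidermis, was listed at no more than 0.2. Of 13 other genes of sphingoid base and ceramide synthesis, 9 were tested, 1 was called higher (*Sptlc3*) and none lower. The shares over all tested genes were 13.2% and 10.5%.

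Acylceramides need an omega-hydroxylated fatty acid esterified with linoleate. All 9 genes in the list of acylceramide synthesis and fatty acid activation were tested. Of these, 3 were called higher (13.2% over all tested genes) and 2 lower (10.5%). *Cyp4f39*, the mouse omega-hydroxylase, was listed at 0 in the 3 KSFM-Ca2+ libraries and had 0.849, 1.20 and 0.954 in the DKSFM libraries. *Pnpla1*, the transacylase that adds linoleate, had 0.229, 0.297 and 0.236 against 1.80, 1.90 and 1.80, a log2 fold change of 2.46 (limma, adjusted p = 4.15e-06). Both remained at low coverage and passed the filter through the DKSFM libraries alone. With pseudocounts of 0.5 and 1, the log2 fold change of *Pnpla1* was 1.63 and 1.18. *Slc27a4*, a fatty acid transport protein with acyl-CoA synthetase activity, went from 10.5 ± 0.385 to 24.0 ± 0.672 (SD, n = 3). *Abhd5*, the partner of *Pnpla1*, was past the adjusted p with a log2 fold change of 0.88, under 2-fold. The largest fall was that of *Fa2h*, the fatty acid 2-hydroxylase, with 4.04, 3.76 and 4.01 in the KSFM-Ca2+ libraries against 0, 0 and 0.106. *Acsl4*, named after its values were seen, was the other gene called lower, with a log2 fold change of -1.02.

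*Ugcg*, the glucosylceramide synthase, had a normalized coverage of 24.3, 24.5 and 26.3 in the KSFM-Ca2+ libraries and 14.0, 14.3 and 15.1 in the DKSFM libraries. All DKSFM libraries were lower, and the log2 fold change of -0.79 with an SE of 0.05 stayed short of 2-fold (limma, adjusted p = 2.77e-06). *Abca12*, the transporter that moves glucosylceramides into lamellar granules, had 20.3, 20.7 and 18.9 in the KSFM-Ca2+ libraries and 6.26, 7.19 and 7.00 in the DKSFM libraries. It was low in each of the 3 DKSFM libraries, far from the other line. Its mean went from 20.0 ± 0.954 to 6.82 ± 0.491 (SD, n = 3), a log2 fold change of -1.54 with an SE of 0.07 (limma, adjusted p = 3.14e-07). Of 10 other genes of ceramide head groups and lamellar granule traffic, all were tested and none was called in either direction, although 7 were past the adjusted p with a rise and 1 with a fall under 2-fold. Over all tested genes, 72.6% were past it.

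**Figure D2:**
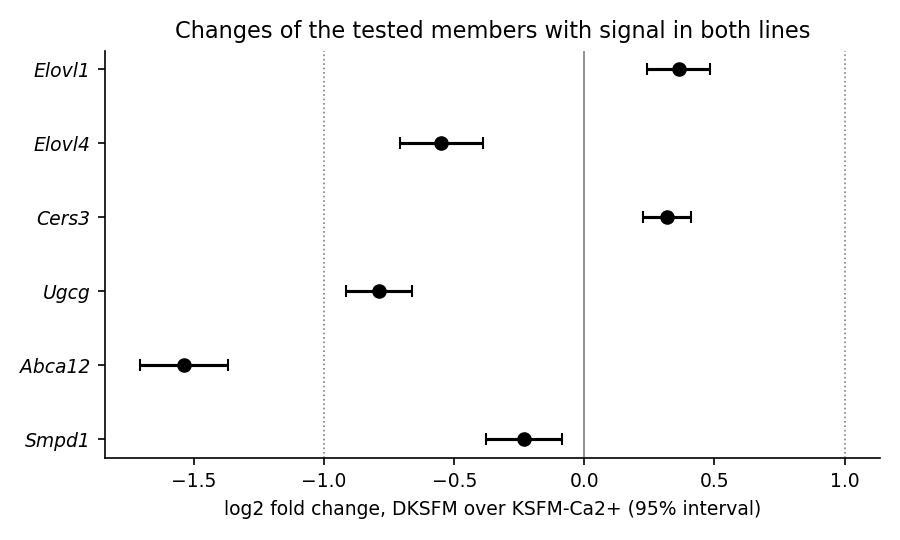
Log2 fold change of DKSFM over KSFM-Ca2+ with its 95% interval from limma for the 6 tested members that had signal in both lines; dotted lines mark a 2-fold change. *Abca12* lies beyond the line on the left, and the other 5 lie between the lines.

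The bases before the start sites of *Lipm*, *Abca12* and *Elovl4* are shown because *Lipm* and *Abca12* were the called members and *Elovl4* fell with *Abca12*. *Ugcg*, which fell more than *Elovl4*, and *Smpd1* also fell and are not shown. The windows come from RefSeq on GRCm38.p6, run 5′ to 3′ on the strand of the gene, stop before the transcribed part in GENCODE M21, for which the *Lipm* window was cut to 240 bases, and have each CpG in capitals. *Lipm* is on the plus strand at chr19:34100693-34100932, and *Abca12* and *Elovl4* are on the minus strand at chr1:71414911-71415160 and chr9:83806306-83806555.
Lipm: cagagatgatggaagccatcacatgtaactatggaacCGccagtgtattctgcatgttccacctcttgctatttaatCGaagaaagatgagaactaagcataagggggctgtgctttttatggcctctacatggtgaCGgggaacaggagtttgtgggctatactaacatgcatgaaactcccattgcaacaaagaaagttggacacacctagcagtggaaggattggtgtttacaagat
Abca12: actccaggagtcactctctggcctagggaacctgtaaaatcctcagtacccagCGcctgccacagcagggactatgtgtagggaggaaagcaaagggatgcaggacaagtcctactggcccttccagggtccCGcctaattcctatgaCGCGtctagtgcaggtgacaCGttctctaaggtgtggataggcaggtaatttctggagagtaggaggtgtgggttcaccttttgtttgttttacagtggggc
Elovl4: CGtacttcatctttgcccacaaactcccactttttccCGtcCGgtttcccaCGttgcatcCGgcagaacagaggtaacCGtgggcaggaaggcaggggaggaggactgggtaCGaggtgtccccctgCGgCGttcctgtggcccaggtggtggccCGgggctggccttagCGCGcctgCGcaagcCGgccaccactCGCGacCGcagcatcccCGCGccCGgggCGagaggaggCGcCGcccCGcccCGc
Windows of 250 bases before RefSeq starts were held for 8 of the 9 members, all but *Aloxe3*, with 2 for *Elovl1*. By the gene starts of GENCODE M21, the uncut windows of *Lipm* and *Alox12b* reach into the gene and that of *Ugcg* and the second of *Elovl1* lie inside it, and the counts given here are those of the uncut windows. The *Lipm* window had 3 CpG, the *Abca12* window 5 and the *Cers3* window 6, where the median of 32851 windows was 6. *Elovl4* had 25, *Smpd1* 16 and *Ugcg* 43, more than 99.3% of the windows. On both strands the GC box GGGCGG, present in 32.7% of all windows, was found in the windows of *Alox12b*, *Elovl1*, *Elovl4*, *Smpd1* and *Ugcg*. No member window held TATAAA (12.4% of all windows), the grainyhead-like motif AACNNGTT (3.64%) or the AP-1 motif TGANTCA (6.75%). A match describes the letters only.

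*Smpd1*, the acid sphingomyelinase that frees ceramide from sphingomyelin, had a normalized coverage of 14.9, 15.0 and 14.3 in the KSFM-Ca2+ libraries and 12.2, 12.0 and 13.5 in the DKSFM libraries. The DKSFM libraries were lower, with a gap between the lines that was smaller than the spread of the DKSFM libraries. The log2 fold change was -0.23 with an SE of 0.06 (limma, adjusted p = 9.01e-03), close to the threshold of 0.01, and 10 of 19 alternatives put the gene on the other side. The ratio of *Ugcg* to *Smpd1* was 1.63, 1.63 and 1.84 in the KSFM-Ca2+ libraries and 1.15, 1.19 and 1.12 in the DKSFM libraries, without overlap.

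**Figure D3:**
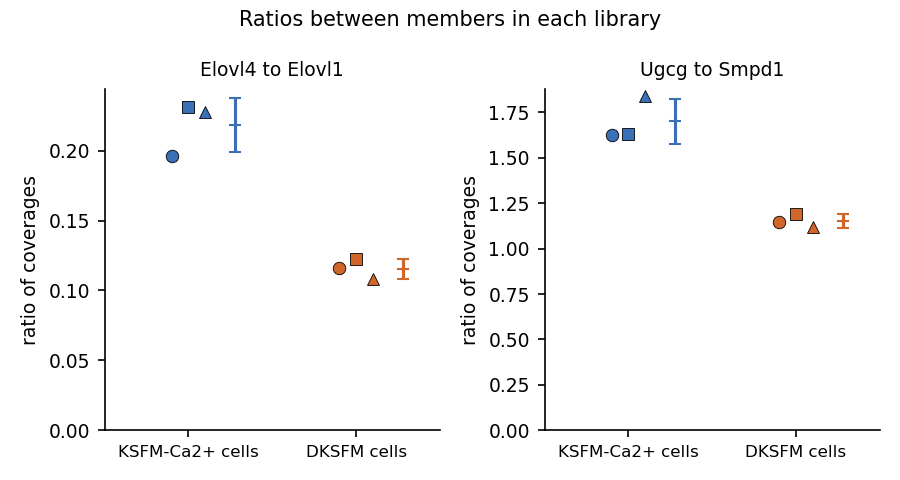
Ratio of *Elovl4* to *Elovl1* and of *Ugcg* to *Smpd1* coverage in each library, with circles, squares and triangles for replicates 1, 2 and 3 and the mean with its SD at the side of the points. Both ratios are lower in every DKSFM library than in any KSFM-Ca2+ library.

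Ceramide release and breakdown had 11 of 12 genes tested, with 3 called higher (13.2% over all tested genes) and 1 lower (10.5%). *Acer1*, the alkaline ceramidase of differentiating epidermis, was listed at 0 in the KSFM-Ca2+ libraries and had 1.27, 2.10 and 1.27 in the DKSFM libraries. *Asah2*, the neutral ceramidase, went from 5.33, 5.04 and 5.19 to 1.59, 1.90 and 1.59. The other calls were *Acer2*, at 0.721 ± 0.0367 and 5.85 ± 0.572, and the sphingosine kinase *Sphk2*, at 29.7 ± 3.61 and 62.8 ± 0.931 (SD, n = 3), both named after their values were seen.

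The lipoxygenase members were near the limit of what could be seen in both lines. *Alox12b*, which oxidises the linoleate of acylceramides first, was listed at 0 in 5 libraries and at 0.1 in DKSFM replicate 3, and 1 rounding step of this gene stands for about 2.86 reads by its transcript length of 2431 bases. *Aloxe3*, which converts the product, was listed at 0.6, 0.3 and 0.6 in KSFM-Ca2+ replicates 1 to 3, against 0.5, 0.5 and 0.3 for DKSFM. Those libraries overlapped, and neither gene was tested. With no filter, *Aloxe3* had a log2 fold change of -0.06 and a 95% interval from -0.79 to 0.68 (limma, adjusted p = 0.881), and changes inside that interval cannot be told apart. The ratio of *Aloxe3* to *Alox12b* could not be formed. *Alox8*, which lies beside *Alox12b* on chromosome 11, was listed at no more than 0.4, *Alox12e* at 0 throughout, and *Sdr9c7*, the dehydrogenase that follows *Aloxe3*, at no more than 0.5.

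One lipoxygenase outside the 9 genes was called. *Alox12*, the platelet-type enzyme also found in epidermis, had a normalized coverage of 0.0762, 0.0989 and 0.118 in the KSFM-Ca2+ libraries and 4.35, 4.40 and 4.13 in the DKSFM libraries, with a log2 fold change of 4.48 (limma, adjusted p = 1.02e-07). It passed the filter through the DKSFM libraries alone. Only 2 of 10 genes of the lipoxygenase and epoxide list were tested, the other being *Ephx1*, at 627 ± 22.0 and 825 ± 6.51 (SD, n = 3).

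*Lipm*, a lipase of the acid lipase family known from the most differentiated keratinocytes, was listed at 0 in the 3 KSFM-Ca2+ libraries, and DKSFM replicates 1 to 3 listed 14.2, 16.4 and 14.1 (limma, adjusted p = 3.36e-09). It was thus seen in every library of one line and in none of the other, and no fold is given. *Lipm* passed the filter through the DKSFM libraries alone, so its lack of overlap came with the filter and its p-value is no further support. The gene lies at chr19:34100933-34122687 on the plus strand of GRCm38 in GENCODE M21. Its end overlaps *Ankrd22*, on the minus strand, by 1219 bases. Libraries were directional and the authors aligned them with a strand setting, but how strand entered the coverage is not given in the sources used here. *Ankrd22* had 43.4 ± 1.24 and 43.7 ± 1.79 (SD, n = 3), a log2 fold change of 0.01 with a 95% interval from -0.09 to 0.11. The part of *Ankrd22* reads in the coverage of *Lipm* was not tested.

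Of the 3 family members upstream of *Lipm*, *Lipk* and *Lipn* were called higher at lower coverage than *Lipm*. *Lipk* had 0.762, 0.593 and 1.18 in the KSFM-Ca2+ libraries against 1.91, 4.50 and 2.12 (log2 fold change 1.58, limma adjusted p = 3.14e-03). *Lipn* had 0.838, 0.692 and 0.354 against 2.76, 2.20 and 1.91 (log2 fold change 1.76, limma adjusted p = 5.25e-04). *Lipk* lost the adjusted p under 0.01 in 5 of 19 alternatives and *Lipn* in 1 of 18, as it could not be fitted under the filter on every library. *Lipf* was listed at 0 in all libraries. Beyond *Ankrd22*, *Stambpl1* was lower in the DKSFM cells, at 196 ± 1.32 and 64.2 ± 3.50 (SD, n = 3). A shared effect along the chromosome was not tested. These neighbours other than the lipases were chosen after their values were seen.

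**Figure D4:**
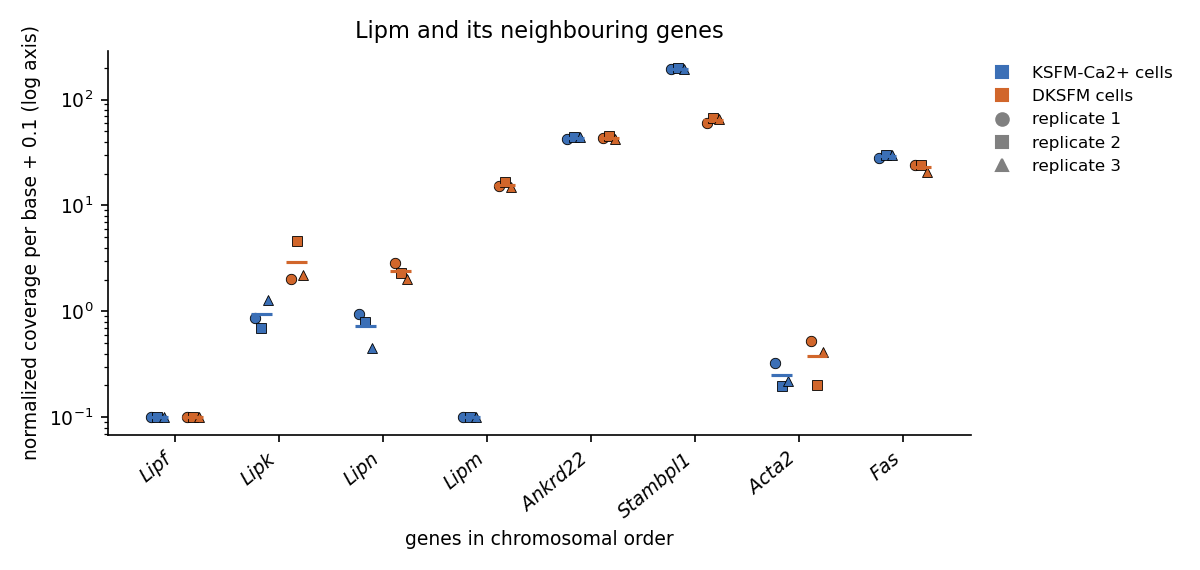
Normalized coverage per base plus 0.1 on a log axis for *Lipm* and the genes beside it in chromosomal order, with each library as a point, replicates by shape and the mean of a line as a bar. *Lipk*, *Lipn* and *Lipm* are higher in the DKSFM libraries, *Ankrd22* is alike in both lines and *Stambpl1* is lower.

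Calls in the lipase list went both ways. Of its 10 genes, 8 were tested, with 3 called higher (*Lipk*, *Lipn* and *Pnpla3*) and 3 lower, where the shares over all tested genes were 13.2% and 10.5%. *Lpl*, the lipoprotein lipase, was at 36.1, 36.1 and 35.8 in the KSFM-Ca2+ libraries and listed at 0 in the DKSFM libraries (limma, adjusted p = 6.22e-10), the mirror image of *Lipm*. *Pnpla3*, a lipase of lipid droplets, had 0.152, 0.198 and 0.118 against 2.55, 2.60 and 3.07. *Lpl* passed the filter through the KSFM-Ca2+ libraries alone and *Pnpla3* through the DKSFM libraries alone. *Lipg*, the endothelial lipase, went from 95.2 ± 3.03 to 10.5 ± 0.679, and *Lipa*, the lysosomal acid lipase, from 34.8 ± 2.03 to 13.1 ± 0.600 (SD, n = 3), both named after their values were seen.

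Per length, the order of the members in the KSFM-Ca2+ cells was *Elovl1*, *Cers3*, *Elovl4*, *Ugcg*, *Abca12*, *Smpd1* and *Aloxe3*, with *Lipm* and *Alox12b* at 0, and no neighbours above 0 overlapped. In the DKSFM cells it was *Elovl1*, *Cers3*, *Elovl4*, *Lipm*, *Ugcg*, *Smpd1*, *Abca12*, *Aloxe3* and *Alox12b*, where only *Lipm* and *Ugcg*, at 15.5 and 14.5, overlapped as neighbours. *Elovl1* made up 51.8% of the summed level of the 9 genes in the KSFM-Ca2+ cells and 59.8% in the DKSFM cells. *Abca12* went from 7.07% to 2.17% of that sum, and from the rank above *Smpd1* to the rank below it.

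Over the lists of other genes of the lipid barrier and its regulation, 75 of 95 genes were tested, with 18 called higher and 8 called lower in the DKSFM cells, where the shares over all tested genes were 13.2% and 10.5%. Of the 18, 6 were transcription factors. The number called higher was 11 with the filter on every library and also 11 when tested against a 2-fold change. The median log2 fold change of the 75 genes was 0.36, and that of all tested genes was -0.0012. Because the lists were chosen with earlier results of these data known, the counts and medians of lists are a description only. In the cholesterol sulfate and sterol list, *Sult2b1*, the sulfotransferase that makes cholesterol sulfate, was the 1 of 5 called, at 35.4 ± 2.52 and 83.4 ± 6.64 (SD, n = 3). Transcription factors of the barrier programme had 13 of 16 tested, 6 called higher (13.2% over all tested genes) and none lower (10.5%), with a median of 0.91. The largest rise was in *Cebpa*, with 87.6, 78.5 and 78.5 in the KSFM-Ca2+ libraries against 489, 525 and 516 (log2 fold change 2.64, limma adjusted p = 2.81e-09). The others called were *Zfp750*, *Grhl1*, *Klf4*, *Grhl3* and *Nr1h2*, named after their values were seen, with log2 fold changes of 2.38, 2.10, 1.75, 1.22 and 1.03. *Pparg* was listed at 0 in all libraries.

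**Figure D5:**
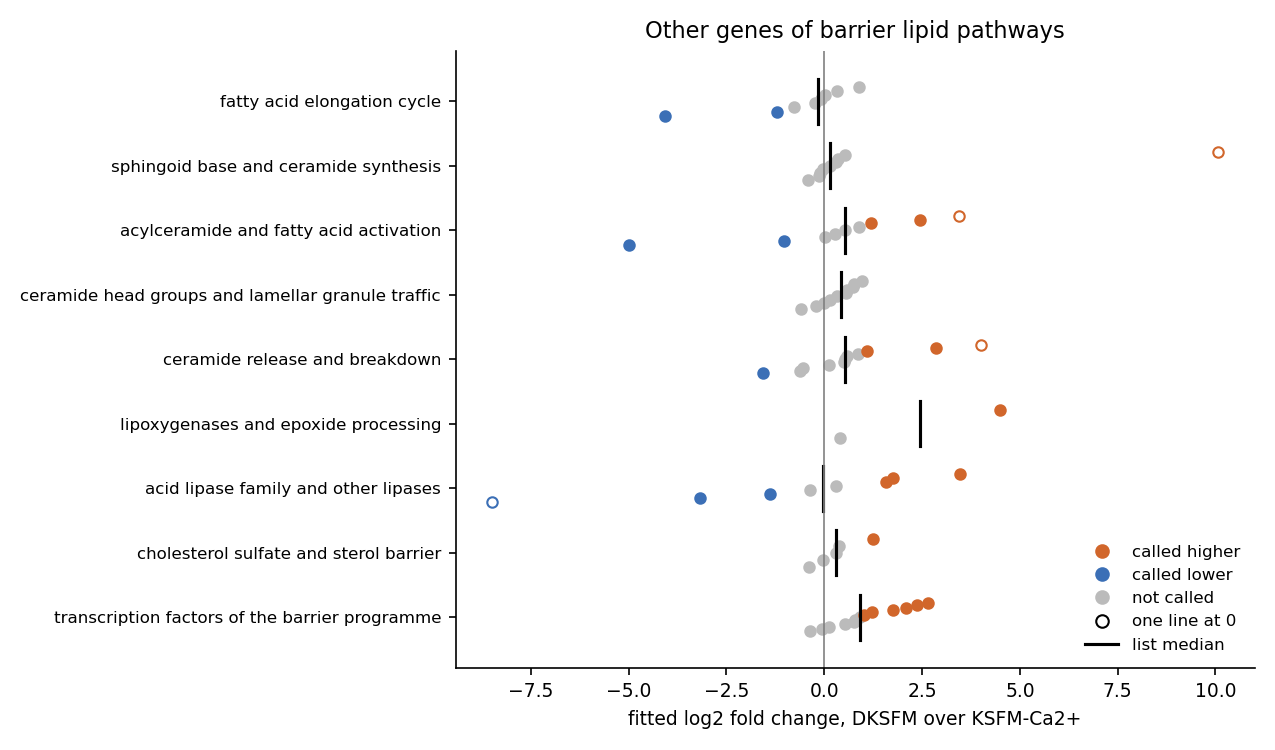
Fitted log2 fold change of DKSFM over KSFM-Ca2+ for the tested genes of each list outside the 9 members, coloured by call, with the median of a list as a bar and open points for genes of which 1 line was at 0, whose position depends on the pseudocount of 0.1. Called genes lie on both sides in the acylceramide, ceramide release and lipase lists.

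The 3 tested genes whose pattern over the 6 libraries was nearest to *Lipm*, by the root mean square distance of centred log2 values, were *Ptn*, *Klf15* and *Lifr*, at distances of 0.06, 0.07 and 0.08. All 3 were listed at 0 in the KSFM-Ca2+ libraries, as was *Lipm*, so the small distances reflect only similar levels in the DKSFM libraries. The DKSFM means of *Ptn*, *Klf15* and *Lifr* were 14.7, 14.0 and 14.5. Among the genes close to *Abca12* by the same distance were *Dennd2a* and *Fzd5*, at 0.04 and 0.05.

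Tested genes within 10 Mb on either side of a member had median log2 fold changes from -0.41 around *Smpd1* to 0.46 around *Ugcg*. The medians were -0.28 around *Abca12*, -0.16 around *Lipm*, -0.40 around *Elovl4*, 0.39 around *Cers3* and 0.10 around *Elovl1*. The members' values thus lay on the side of their surroundings for *Abca12*, *Elovl4*, *Smpd1*, *Cers3* and *Elovl1* and on the other side for *Ugcg* and *Lipm*. The study reports tetraploid, nearly tetraploid and hyperdiploid cells in the KSFM-Ca2+ lines, and the ploidy of the DKSFM cells is not given in the sources used here. The part of copy number in these values was not tested.

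The labelled cell type was checked against its markers. Basal keratinocyte genes were abundant in both lines, with summed normalized coverage of 17458, 17872 and 17598 in the KSFM-Ca2+ libraries and 42945, 39114 and 43301 in the DKSFM libraries, mostly from *Krt14*, and 2 of 5 tested genes (*Krt5* and *Krt14*) were called higher. *Itgb4* of the same list was lower, at 321 ± 6.24 and 192 ± 8.57 (SD, n = 3) with a log2 fold change of -0.74, and *Trp63* and *Itga6* had log2 fold changes of 0.13 and 0.14. Suprabasal genes had sums of 29.2, 30.6 and 31.1 against 46.3, 56.5 and 47.8, with *Ivl* the most abundant in the KSFM-Ca2+ cells and *Tgm1* in the DKSFM cells. Of 8 suprabasal genes, 6 were tested and 4 called higher (*Lor*, *Dsg1a*, *Dsc1* and *Tgm1*), while *Ivl* fell by 0.66 on the log2 scale. Over all tested genes, 13.2% were called higher and 10.5% lower. *Krt1* was listed at 0 in the KSFM-Ca2+ libraries, as was *Dsg1a*. *Krt10* rose by less than 2-fold, with a log2 fold change of 0.49, and *Krt1* and *Tgm3* were not tested. The part of the marker genes in the other results was not tested.

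Many defining genes of other skin cells were listed at 0. Among the sebocyte genes, *Mc5r*, *Awat1*, *Cidea* and *Plin5* were listed at 0 in all libraries, and *Awat2* was the most abundant and the 1 of 8 tested, with 1.10 ± 0.595 and 1.32 ± 0.328 (SD, n = 3). The sebocyte list summed to 1.75, 0.593 and 1.06 in the KSFM-Ca2+ libraries and 1.80, 1.10 and 1.38 in the DKSFM libraries. The fibroblast genes *Col1a1*, *Col1a2*, *Col3a1*, *Dcn* and *Lum*, the melanocyte genes *Dct* and *Tyr*, the T cell gene *Cd3e* and the endothelial gene *Cdh5* were listed at 0 in all libraries. In each of those lists 1 gene was tested, and it was also the most abundant and higher in the DKSFM cells: *Pdgfra* at 1.11 ± 0.206 and 2.22 ± 0.119, *Mitf* at 3.51 ± 0.418 and 17.7 ± 0.648, *Cd68* at 11.5 ± 0.908 and 17.6 ± 3.61, and *Pecam1* at 2.78 ± 0.255 and 7.58 ± 0.601 (SD, n = 3). In KSFM-Ca2+ replicates 1 to 3 and then the DKSFM replicates, the 6 fibroblast genes summed to 1.14, 0.890, 1.30, 2.34, 2.10 and 2.23 and the 5 melanocyte genes to 4.12, 3.76, 4.60, 17.3, 18.7 and 18.3. The sums were 10.9, 11.2, 12.6, 13.6, 18.9 and 20.6 for the 5 immune cell genes and 2.82, 3.16, 3.30, 8.28, 8.29 and 7.42 for the 4 endothelial genes. The part of these genes in the results was not tested.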

How the data were processed

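By the authors' methods, poly(A) RNA was made into directional libraries and read from one end for 85 bases, and reads were converted by bcl2fastq, placed on mm10 by STAR with RefSeq genes and quantified by Salmon, with DESeq2 for the authors' own comparison. The deposited signal is the mean read coverage per base of each gene, to 1 decimal and not scaled to library size, and how it was computed is not given in the sources used here. The design allowed for counts or coverage, and as coverage is no count, limma was used.

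For scaling, a trimmed mean of M values without weights (30% of M, 5% of A cut) brought the libraries to the geometric mean of the library totals. The geometric mean was set after the number of tested genes had been seen, and it leaves *Aloxe3* under the filter, so the arithmetic mean was added as an alternative after seeing the data. The filter asked for 0.5 or more in 3 libraries, or in 2 when 1 was left out, and the 12409 genes that passed were fitted on log2(value + 0.1) with an intensity trend. Adjustment was by Benjamini-Hochberg over these genes, without covariates. The procedure was tested on simulated data. Named genes were the members, per list the called gene with the largest rise and the largest fall at a coverage of at least 1, genes acting on the same substrates, and markers. Members and lists were chosen with earlier results of these data known. Alternatives were other scalings, filters, pseudocounts, weights, no trend, a block, treat, combined libraries only and each library left out. R 4.3.3, limma 3.58.1, Python 3.11.15, matplotlib 3.10.9 and GENCODE M21 were used.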

Additional observations from a re-analysis of the deposited data

How the results depend on the processing

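Under 19 alternatives, *Abca12* was called lower in each, with log2 fold changes from -1.63 to -1.42. *Lipm* was called higher in 18 and could not be fitted under the filter on every library, which it cannot pass and which left 0 members called higher. The directions of the 7 tested members did not change in any alternative. *Elovl1*, *Elovl4*, *Cers3* and *Ugcg* had an adjusted p under 0.01 in limma in all alternatives but treat, which tests against a 2-fold change and gave an adjusted p of 1 at unchanged log2 fold changes of 0.36, -0.55, 0.32 and -0.79, and likewise for *Smpd1* at -0.23. *Smpd1* had an adjusted p above 0.01 also with relative log expression size factors (-0.22), with no filter (-0.23) and with the combined libraries (-0.19, where the lone KSFM-Ca2+ library is assumed to vary like the others). Leaving out 1 library gave *Smpd1* log2 fold changes from -0.28 to -0.20, and it kept an adjusted p under 0.01 only without DKSFM replicate 3. Over its alternatives the adjusted p of *Smpd1* ran from 2.27e-03 to 1. The cause was not tested.

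Deviations of same-numbered libraries had correlations of -0.0051, 0.024 and -0.0061, and those of differently numbered libraries ran from -0.037 to 0.040. No pairing by replicate number was seen, but so few libraries cannot exclude it. With the number as a block, 1641 genes were called higher and 1304 lower, and *Smpd1*, at -0.23, had an adjusted p of 0.0225 in limma. All genes called higher were 1636, and 1032 with the filter on every library and 1062 with treat. Genes called lower were 1307, and 785 with treat. The balance of calls depended on the choices, with 1461 higher and 1486 lower after quantile normalization, 1641 and 988 in the combined libraries and 1971 and 1484 with no filter. Other barrier lipid genes called higher were 18, and 11 with the filter on every library as well as with treat. With the arithmetic mean, chosen after seeing the data, 12450 genes were tested, 1 member was called in each direction as before, and *Aloxe3* had a log2 fold change of -0.06 with an adjusted p of 0.875. Alternatives for other named genes leave out markers and genes named after their values were seen. Of 388 such values, 353 stayed on their side of an adjusted p of 0.01, whatever the fold, 35 did not, and 0 reversed. *Sptlc1* was above it in 15 of 19 alternatives and *Cers2* in 8, so neither small change is firm. *Cyp4f39* kept that p with a pseudocount of 1 but fell just short of 2-fold. With the same pseudocount, the log2 fold changes of *Lipk* and *Lipn* were 1.01 and 1.02. *Lipk* was above 0.01 with no trend (adjusted p of limma 0.0108), the combined libraries (0.0649), treat (0.340) and without KSFM-Ca2+ replicate 1 (0.0133) or 2 (0.0123), and *Lipn* (0.0807), *Slc27a4* (0.0265) and *Sult2b1* (0.0310) with treat. The other values that did not stay were those of genes under 2-fold with treat. *Lipn* could not be fitted under the filter on every library.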
